A study of Mus musculus with 198 samples.

Results

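A set of 9 genes that mark endothelial cells, the lining of blood vessels, were followed through 9 tissues of 22 mice: Kdr, Flt1, Tek, Tie1, Pecam1, Cdh5, Emcn, Eng and Vwf. They were chosen by gene name, and all 9 were found among the 56332 genes of the deposited count table. The mice were C57BL/6 and were given, for 17 weeks, either an antibody against PAPP-A (aPAPPA, 10 mice, 5 of them female) or a control antibody (12 mice, 6 of them female). PAPP-A is a secreted protease that cleaves insulin-like growth factor binding proteins. Skin, heart, lung, spleen, kidney, liver, bone marrow and 2 fat depots (gonadal and subscapular) were taken from each animal, giving 198 whole-tissue libraries of total RNA. The ages of the mice and the type of the control antibody were not given in the sources used here.

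Kdr and Flt1 encode the receptors VEGFR2 and VEGFR1 for vascular endothelial growth factors, with Kdr carrying most of the growth signal and Flt1 binding the ligand tightly while signalling weakly. Tek encodes the angiopoietin receptor TIE2, which holds vessels in a quiet, stable state, and Tie1 its partner receptor, which has no well-established ligand of its own. Pecam1 and Cdh5 encode adhesion proteins of endothelial junctions (CD31 and VE-cadherin), and Pecam1 is also made by platelets and many leukocytes. Emcn encodes endomucin, a sialomucin of capillary and venous endothelium, and Eng encodes endoglin, a co-receptor for bone morphogenetic proteins and TGF-beta. Vwf encodes von Willebrand factor, the clotting protein stored in endothelial granules and made by megakaryocytes as well. Because the RNA came from whole tissue, fewer endothelial cells and less of a transcript per endothelial cell cannot be told apart in any value below.

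The genes lie on 7 chromosomes of the mouse build mm10. Kdr lies at chr5:75932827-75978458 on the minus strand, with 30 exons in its longest transcript. Flt1 lies at chr5:147561604-147726011 on the minus strand, with 30 exons in its longest transcript. Tek spans chr4:94739289-94874976 on the plus strand, with 23 exons in its longest transcript. Tie1 spans chr4:118471191-118490061 on the minus strand, with 22 exons in its longest transcript. Pecam1 occupies chr11:106654217-106750628 on the minus strand, with 16 exons in its longest transcript. Cdh5 occupies chr8:104101625-104144511 on the plus strand, with 12 exons in its longest transcript. Emcn was annotated to chr3:137341067-137432185 on the plus strand, with 7 exons in its longest transcript. Eng was annotated to chr2:32646595-32682669 on the plus strand, with 15 exons in its longest transcript. Vwf, the longest of the transcripts, runs over chr6:125546774-125686679 on the plus strand, with 52 exons in its longest transcript. Fpgs lies on the opposite strand of Eng and touches 2 of its exons, and the antisense gene Gm29682 touches 1 exon of Cdh5. The strand setting of the counting was not given in the sources used here, so reads of these partners and of Eng or Cdh5 cannot be told apart.

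The RefSeq promoter table of build GRCm38.p6 held 6 of the 9 genes (Kdr, Flt1, Tek, Tie1, Emcn and Eng). The 250 bases before the start are shown for 4 of these: Kdr, Tie1, Emcn and Eng. By control median Kdr and Tie1 were highest in lung, as were Flt1 and Tek, whose windows are not shown. Emcn was highest in kidney, though not beyond the spread from heart. Eng was highest in lung too, and as high in liver as in heart. Capitals mark AGGAAG, or CTTCCT for the same motif on the other strand. It is a longer sequence around GGAA, the core bound by many ETS factors, a family with known roles in endothelial transcription. GGAA outside this motif was neither marked nor counted, and the Kdr window holds it. The windows are chr5:75978456-75978705 (minus strand), chr4:118489850-118490099 (minus strand), chr3:137340828-137341077 (plus strand) and chr2:32646345-32646594 (plus strand), in that order, each printed 5′ to 3′ in the direction of the gene.
Kdr: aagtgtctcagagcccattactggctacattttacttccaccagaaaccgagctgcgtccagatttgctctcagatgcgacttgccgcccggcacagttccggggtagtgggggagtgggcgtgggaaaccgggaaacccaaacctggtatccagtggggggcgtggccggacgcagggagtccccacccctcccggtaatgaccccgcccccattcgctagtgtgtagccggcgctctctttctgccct
Tie1: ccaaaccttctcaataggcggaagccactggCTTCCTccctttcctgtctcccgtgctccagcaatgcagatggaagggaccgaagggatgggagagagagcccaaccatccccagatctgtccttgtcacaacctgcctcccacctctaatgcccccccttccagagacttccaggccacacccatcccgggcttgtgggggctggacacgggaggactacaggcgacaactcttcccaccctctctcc
Emcn: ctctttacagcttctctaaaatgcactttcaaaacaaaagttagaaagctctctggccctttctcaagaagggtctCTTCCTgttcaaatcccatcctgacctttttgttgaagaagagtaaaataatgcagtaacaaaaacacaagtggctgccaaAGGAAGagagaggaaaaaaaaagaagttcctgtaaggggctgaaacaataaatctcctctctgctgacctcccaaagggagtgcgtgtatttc
Eng: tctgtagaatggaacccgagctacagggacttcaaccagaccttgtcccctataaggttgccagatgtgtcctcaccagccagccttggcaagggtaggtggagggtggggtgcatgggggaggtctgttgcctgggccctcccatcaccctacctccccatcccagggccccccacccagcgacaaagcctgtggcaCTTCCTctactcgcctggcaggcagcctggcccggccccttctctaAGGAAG
The motif was found 0 times in the Kdr window, 1 time in that of Tie1, and 2 times each in those of Emcn and Eng. Flt1 held 2 and Tek 0. Of all 32851 promoter windows of the same length in the table, 29.5% held it. G and C made up 61.6% of the Kdr window, 60.4% of Tie1, 40.8% of Emcn and 62.4% of Eng. These are descriptions of letters, and no match says only that the motif is absent from the window.

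Library totals ran from 4138419 to 19517950 counts with a median of 8950258. A group of 9 abundant features, ribosomal RNA and mitochondrial sequences among them, held 47.39% to 99.5% of a library's counts (median 87.43%), which left a median of 1099966.5 usable counts. Levels below are therefore given as CPM, the counts of a gene rescaled to a total of 1000000 counts outside those 9 features, with TMM scaling (edgeR's trimmed mean method) across all 198 libraries. The tissues carried their own markers, with 5 exceptions. A library was doubted when its marker mean lay more than 2 log2 units below the tissue median. It was also doubted when fewer than 1000 genes had at least 10 counts. The hearts of aPAPPA male 56 and control female 22, the gonadal fat of aPAPPA male 58 and the lung of control male 68 had mean log2 levels of their tissue's markers of 7.85, 8.03, 7.36 and 1.63, against medians of 11.89, 11.89, 10.17 and 10.36. The skin of aPAPPA female 36 had 308 genes with at least 10 counts and 33377 usable counts. These 5 libraries are kept in the values below, and calls are also given without them where that changes one.

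Lung had the highest control median for 8 of the 9 endothelial genes, and kidney for Emcn. Heart came second for 8 of 9, but stood below kidney and liver for Eng. The lowest median lay in bone marrow or skin for 8 of 9, and in kidney for Vwf. In control mice all 9 were higher in lung than in the mean of the other 8 tissues, and all 9 were higher in heart, at adjusted p under 0.05 (edgeR quasi-likelihood test over 17552 genes in the control libraries). In skin all 9 were lower, and in bone marrow 8 were lower while Vwf was not called. These counts stand beside wide differences between tissues in all genes. In lung 32% of all genes tested were called higher and 21.2% lower. In heart 30.8% of all genes tested were called higher and 32.5% lower. In skin 32% of all genes tested were called higher and 33.3% lower, and in bone marrow 37.8% of all genes tested were called higher and 42.4% lower. Except for Emcn and Eng, the lowest control value in lung was that of the doubted lung of male 68. The difference of lung from the other tissues ranged from 1.73 for Emcn to 3.61 for Vwf on the log2 scale, and that of heart from 1.46 for Pecam1 to 2.81 for Emcn.

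**Figure D1:**
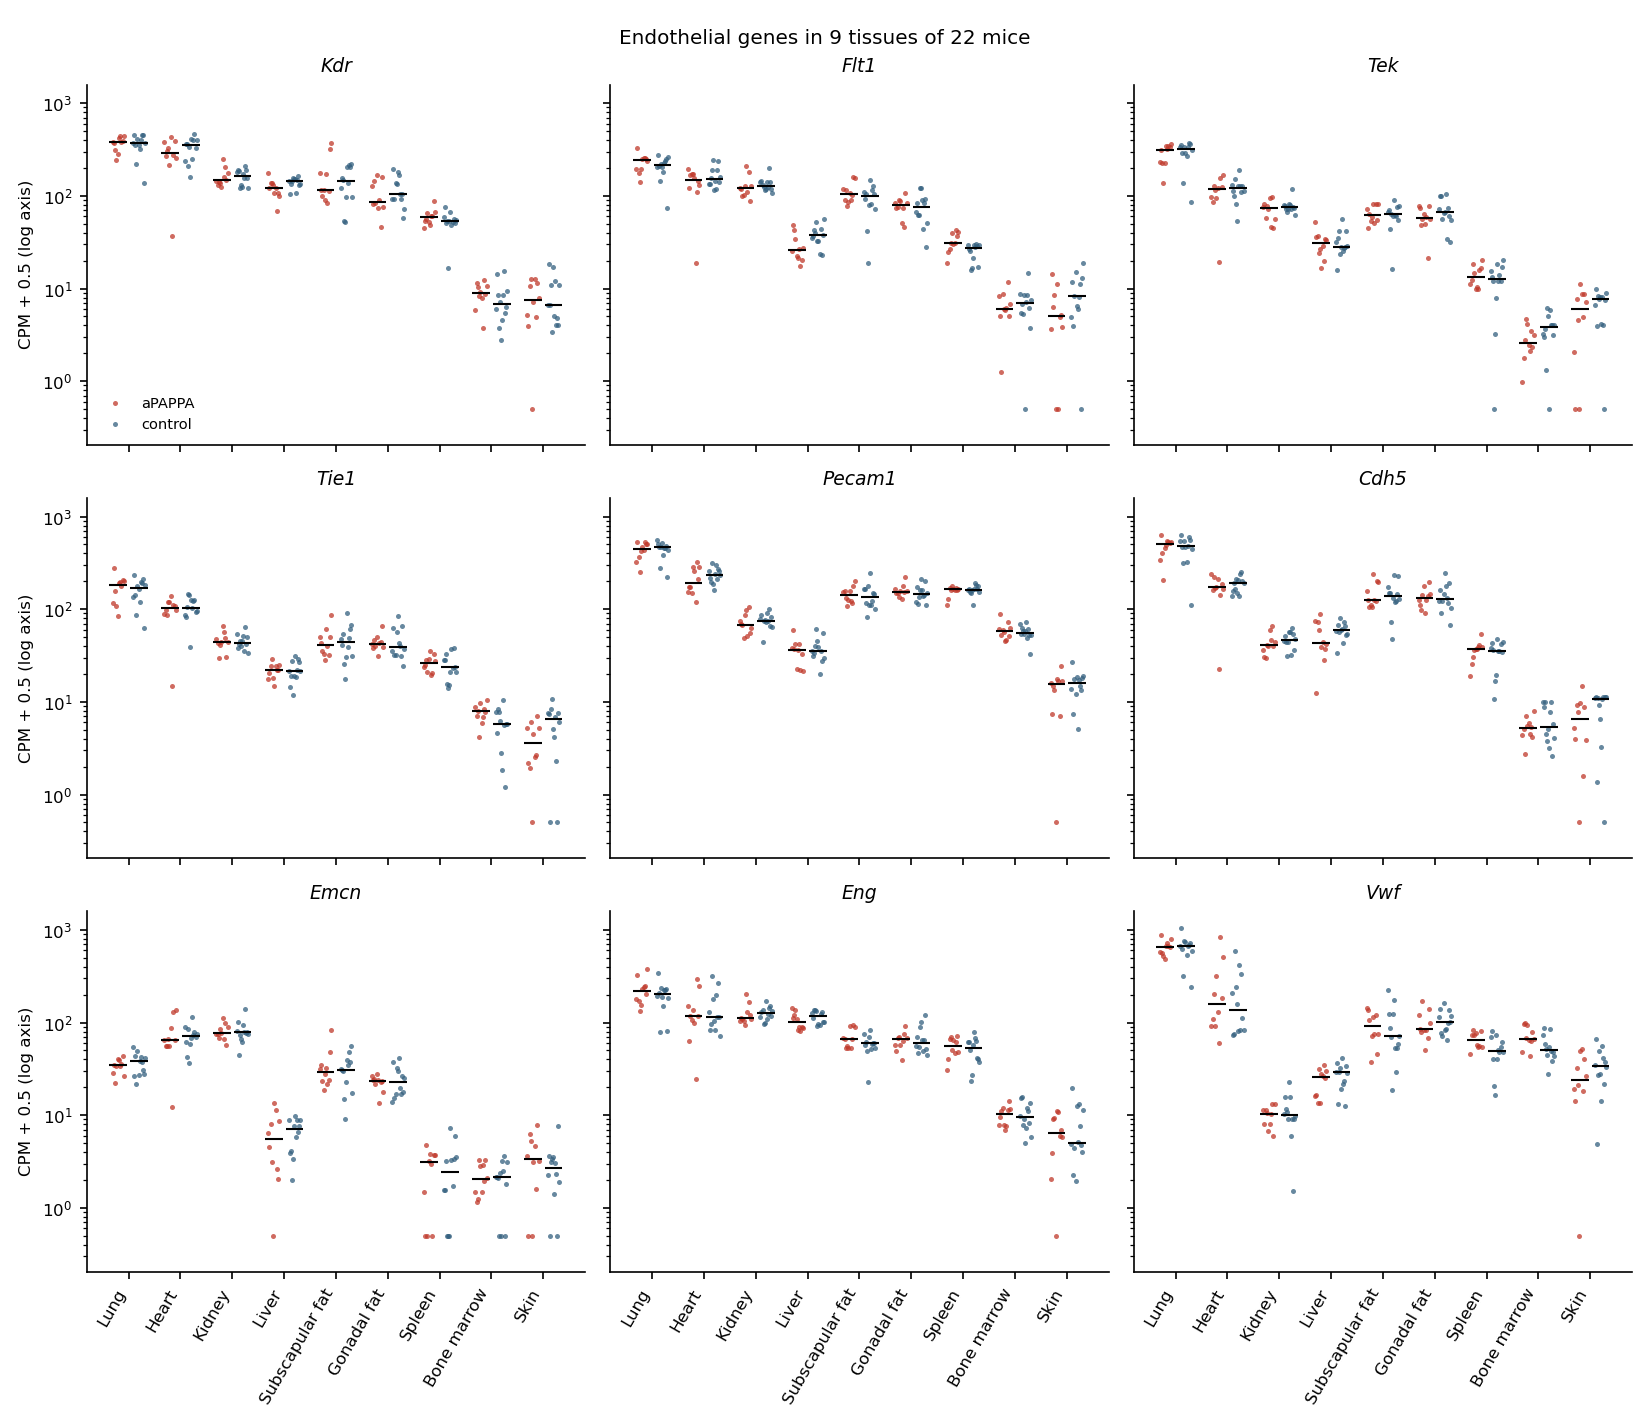
Level of the 9 endothelial genes in the 9 tissues, in CPM outside the 9 abundant features on a log axis, with 1 point per mouse and aPAPPA left of control in each tissue. Lung and heart stand at the top for most genes (control medians of 477 and 190 CPM for Cdh5), Emcn peaks in kidney and heart (77.8 and 71.3 CPM), and Vwf is lowest in kidney (9.56 CPM).

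Kdr, the main growth receptor, had 136, 375 and 458 CPM in lung, 160, 349 and 460 CPM in heart and 120, 163 and 211 CPM in kidney (the lowest, median and highest value of 12 control mice). It then had 104, 144 and 165 CPM in liver, 52.1, 143 and 221 CPM in subscapular fat and 57.7, 105 and 192 CPM in gonadal fat. The lowest levels were 16.2, 53.3 and 74.9 CPM in spleen, 2.28, 6.27 and 14.9 CPM in bone marrow and 2.89, 6.11 and 17.8 CPM in skin. The levels fell into 4 tiers, since only the steps of heart over kidney, gonadal fat over spleen and spleen over bone marrow exceeded the larger standard deviation (SD) of the neighbouring tissues, and each of these 3 was seen in 12 of 12 control mice. Flt1, the tighter-binding receptor, had 72.9, 215 and 274 CPM in lung, 115, 150 and 242 CPM in heart and 108.2, 127 and 198 CPM in kidney. Its middle levels were 18.2, 98.1 and 149 CPM in subscapular fat, 27.8, 74.5 and 121 CPM in gonadal fat and 22.7, 36.9 and 56.2 CPM in liver. It ended with 15.3, 26.8 and 30 CPM in spleen, 0, 7.77 and 18.2 CPM in skin and 0, 6.56 and 14.1 CPM in bone marrow. For Flt1 the steps past the larger SD were gonadal fat over liver, liver over spleen and spleen over skin. Liver was the tissue in which the receptors parted. Against the other 8 tissues, Kdr was higher in liver by 0.84 ± 0.14 (log2 ± SE, adjusted p = 8.92e-08, edgeR), whereas Flt1 was lower there, at −0.49 ± 0.17 (adjusted p = 0.00775, edgeR). Per kilobase of transcript, the log2 ratio of Kdr to Flt1 had a median of 2.16 (1.44 to 2.99) in liver over 22 mice, against 0.53 in kidney and 1.00 in lung, and liver was the highest of the 9 tissues in 19 of 22 mice. In liver 28.2% of all genes tested were called higher and 37.3% lower; among the 9 endothelial genes 2 were higher (Kdr and Eng) and 5 lower.

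Tek, the angiopoietin receptor, had 85.4, 324 and 370 CPM in lung, 53.4, 120 and 188 CPM in heart and 62, 75 and 119 CPM in kidney. It had 31.1, 65.7 and 103 CPM in gonadal fat, 15.6, 62.5 and 88.7 CPM in subscapular fat and 15.6, 27.7 and 55.2 CPM in liver in the middle of its order. At the bottom it had 0, 12.2 and 19.8 CPM in spleen, 0, 7.18 and 9.51 CPM in skin and 0, 3.34 and 5.7 CPM in bone marrow. Tek had one of the widest ranges, its median in lung being 96.8 times that in bone marrow, and its lung value exceeded the heart value in 10 of 12 control mice. Tie1, its partner, had 62.3, 170 and 234 CPM in lung, 38.5, 103 and 146 CPM in heart and 17.4, 44.1 and 90.4 CPM in subscapular fat. Next came 33, 43 and 63.3 CPM in kidney, 23.7, 38.4 and 83 CPM in gonadal fat and 13.5, 23 and 37.3 CPM in spleen. Its lowest values were 11.4, 21.1 and 30.9 CPM in liver, 0, 5.99 and 10.1 CPM in skin and 0.7, 5.27 and 10 CPM in bone marrow. Lung over heart, heart over subscapular fat, gonadal fat over spleen and liver over skin were the Tie1 steps past the larger SD. The pair parted in spleen, and in bone marrow on few reads (control medians of 4 counts for Tek and 8.5 for Tie1 per library). Per kilobase, the log2 ratio of Tek to Tie1 had a median of −1.05 (−3.51 to −0.19) in spleen and −1.12 (−2.36 to 1.00) in bone marrow, against 0.70 in lung and 0.66 in kidney. In spleen Tek was lower than in the other tissues (−1.70 ± 0.19, log2 ± SE, adjusted p = 4.6e-14, edgeR), while Tie1 was not called there (−0.32 ± 0.17, adjusted p = 0.0834, edgeR). Without the doubted libraries Tie1 passed in spleen as well (−0.35, adjusted p = 0.0448, edgeR).

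Pecam1 had 224, 465 and 555 CPM in lung, 162, 234 and 313 CPM in heart and 111, 163 and 190 CPM in spleen. Its next levels were 111, 145 and 209 CPM in gonadal fat, 82.4, 134 and 248 CPM in subscapular fat and 44.1, 74.7 and 101 CPM in kidney. It ended with 32.1, 55.4 and 72.7 CPM in bone marrow, 19.7, 34.9 and 60.1 CPM in liver and 4.6, 15.4 and 26.6 CPM in skin. For Pecam1, spleen came next after lung and heart, and bone marrow stood above liver by 0.59 on the log2 scale, in 10 of 12 control mice. Cdh5, the adherens junction cadherin of endothelium, had 110, 477 and 639 CPM in lung, 140, 190 and 253 CPM in heart and 47.7, 139 and 231 CPM in subscapular fat. In its middle range it had 66.7, 128 and 248 CPM in gonadal fat, 32.8, 58.7 and 80.1 CPM in liver and 31.2, 46.1 and 61.8 CPM in kidney. It was lowest with 10.2, 35.3 and 46.7 CPM in spleen, 0, 10.3 and 10.8 CPM in skin and 2.1, 4.9 and 9.57 CPM in bone marrow. Lung over heart, gonadal fat over liver and spleen over skin were the Cdh5 steps past the larger SD, and the median in lung was 97.4 times that in bone marrow. Spleen was the tissue in which Pecam1 alone was called higher than in the other 8 (0.80 ± 0.10, log2 ± SE, adjusted p = 1.51e-11, edgeR), where 34% of all genes tested were called higher and 32.5% lower and 5 members were lower, Cdh5 among them at −0.86 ± 0.17. The per-kilobase log2 ratio of Pecam1 to Cdh5 was 3.39 (2.51 to 4.32) in bone marrow and 2.35 (1.76 to 3.90) in spleen, against 0.13 in lung and −0.36 in liver. It was highest in bone marrow in 20 of 22 mice and lowest in liver in 17 of 22. The bone marrow ratio rests on few reads of Cdh5 (a control median of 7.5 counts per library). Beside this ratio, the summed level of 6 leukocyte markers was 2890 to 4510 CPM in control bone marrow and 2160 to 3340 CPM in control spleen. In control lung it was 304 to 845 CPM. The order did not hold in all tissues. The sum was 59.4 to 207 CPM in control kidney and 27.7 to 85.6 CPM in control skin, with median ratios of 0.91 and 0.93. In control gonadal fat it was 277 to 1250 CPM, with a median ratio of 0.38. The part of leukocytes in the Pecam1 level was not tested.

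Emcn was the exception to the lead of lung, with 44.1, 77.8 and 139 CPM in kidney, 36.1, 71.3 and 114 CPM in heart and 21.3, 37.6 and 54.5 CPM in lung. It had 8.68, 30.5 and 54.8 CPM in subscapular fat, 13.3, 22.1 and 41 CPM in gonadal fat and 1.52, 6.58 and 9.19 CPM in liver. Its lowest tissues gave 0, 2.17 and 7.11 CPM in skin, 0, 1.95 and 6.87 CPM in spleen and 0, 1.65 and 3.13 CPM in bone marrow. Kidney and heart did not differ beyond the spread for Emcn (8 of 12 control mice higher in kidney), whereas heart exceeded lung in 10 of 12. Against the other 8 tissues Emcn was higher in kidney by 3.00 ± 0.13 (log2 ± SE, adjusted p = 4.69e-41, edgeR), the largest upward kidney difference of the 9 genes. Eng, the bone morphogenetic protein co-receptor, had 79.4, 202 and 344 CPM in lung, 94.9, 125 and 172 CPM in kidney and 90.9, 116 and 137 CPM in liver. It had 71.6, 114 and 315 CPM in heart, 44, 59.4 and 120 CPM in gonadal fat and 22.6, 59.1 and 83.7 CPM in subscapular fat next. It was lowest with 22.9, 53 and 78.3 CPM in spleen, 4.57, 8.98 and 15.2 CPM in bone marrow and 1.45, 4.5 and 19 CPM in skin. Lung, kidney, liver and heart formed a top tier for Eng without a step past the larger SD, and the drop to gonadal fat was the first that exceeded it. In kidney 29.1% of all genes tested were called higher and 32.2% lower; the set had 6 members higher (Kdr, Flt1, Tek, Tie1, Emcn and Eng) and 3 lower (Pecam1 at −0.42, Cdh5 at −0.38 and Vwf at −3.09). The kidney call of Cdh5 was lost in 4 alternatives, with estimates of −0.37 to −0.34 (limma-voom, no filter on low counts, the abundant features left out, and aPAPPA in place of control libraries). Against Cdh5, per kilobase, Emcn reached a median log2 ratio of 1.07 (0.18 to 1.47) in kidney, against −3.43 (−4.36 to −2.39) in lung. Kidney was the highest of the 9 tissues for that ratio in 22 of 22 mice, and the ratio of Flt1 to Cdh5 was likewise highest in kidney in 22 of 22. Eng to Cdh5 was 1.68 in kidney and 1.23 in liver, against −0.95 in lung.

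Vwf, the stored clotting protein, had 241, 671 and 1060 CPM in lung, 73.4, 135 and 592 CPM in heart and 64.2, 100 and 161 CPM in gonadal fat. It had 18.2, 70.4 and 226 CPM in subscapular fat, 27.4, 49.7 and 86.5 CPM in bone marrow and 16.2, 49.1 and 80.2 CPM in spleen. It ended with 4.34, 33.5 and 65.3 CPM in skin, 12.1, 28.4 and 40.9 CPM in liver and 1, 9.56 and 22.3 CPM in kidney. Only lung over heart and liver over kidney were steps past the larger SD, and kidney stood below liver in 11 of 12 control mice. Vwf and Emcn ran in opposite directions in kidney: Vwf was lower than in the other tissues by 3.09 on the log2 scale (SE 0.29, adjusted p = 2.27e-17, edgeR) and Emcn higher. The log2 ratio of Emcn to Vwf per kilobase was 4.13 (2.73 to 6.23) in kidney and at most 0.24 as a median in any of the other 8 tissues, and kidney was the highest tissue in 22 of 22 mice. In bone marrow Vwf was the 1 member not called lower (−0.40 ± 0.22, adjusted p = 0.0852, edgeR), and its per-kilobase log2 ratio to Cdh5 was 2.04 (1.04 to 3.55), the highest of the 9 tissues in 21 of 22 mice. That of Pecam1 to Cdh5 was 3.39 in bone marrow and was highest there in 20 of 22 mice. Both ratios rest on few reads of Cdh5 in bone marrow (a control median of 7.5 counts per library). Beside Vwf, the summed level of 6 megakaryocyte and platelet genes was 137 to 251 CPM in control bone marrow, against 59.1 to 141 CPM in control lung. Other tissues did not keep this order. The sum was 75.6 to 210 CPM in control spleen and 55.7 to 202 CPM in control gonadal fat, where the median ratio of Vwf to Cdh5 was −0.56 and −1.52. In control skin the sum was 10.4 to 28.7 CPM, with a median ratio of 0.65. The part of megakaryocytes and platelets in the Vwf level was not tested.

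The fat depots lay between these extremes, with 8 of 9 members higher in each than in the mean of the other 8 tissues and 0 called lower. In gonadal fat 31.1% of all genes tested were called higher and 23.4% lower, and in subscapular fat 31.7% of all genes tested were called higher and 20.4% lower. Cdh5 had the largest difference in both depots (1.43 ± 0.13 in gonadal fat and 1.47 ± 0.13 in subscapular fat), and Eng was the member not called in either (0.28 ± 0.15 and 0.06 ± 0.15, adjusted p = 0.102 and 0.767, edgeR). The call of Vwf in subscapular fat (0.47 ± 0.20, adjusted p = 0.0418, edgeR) was lost with mouse as a block (0.45, adjusted p = 0.0569, edgeR), by limma-voom (0.32, adjusted p = 0.217), with DESeq2-type factors (0.42, adjusted p = 0.0721, edgeR) and with the abundant features left out (0.44, adjusted p = 0.0557, edgeR), leaving 7. In the aPAPPA libraries Eng was called in subscapular fat (0.37, adjusted p = 0.0299, edgeR). In skin the low levels rested on few reads, with medians of 2 counts for Emcn, 7 for Kdr, 11 for Pecam1 and 22 for Vwf per control library. A further list of 20 endothelial genes also summed low there (60 to 199 CPM in control skin, against 1400 to 6140 CPM in control lung). Bone marrow medians were as low, at 2 counts for Emcn, 7.5 for Cdh5 and 10 for Kdr, so orders among the lowest tissues were not resolved at this depth.

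**Figure D2:**
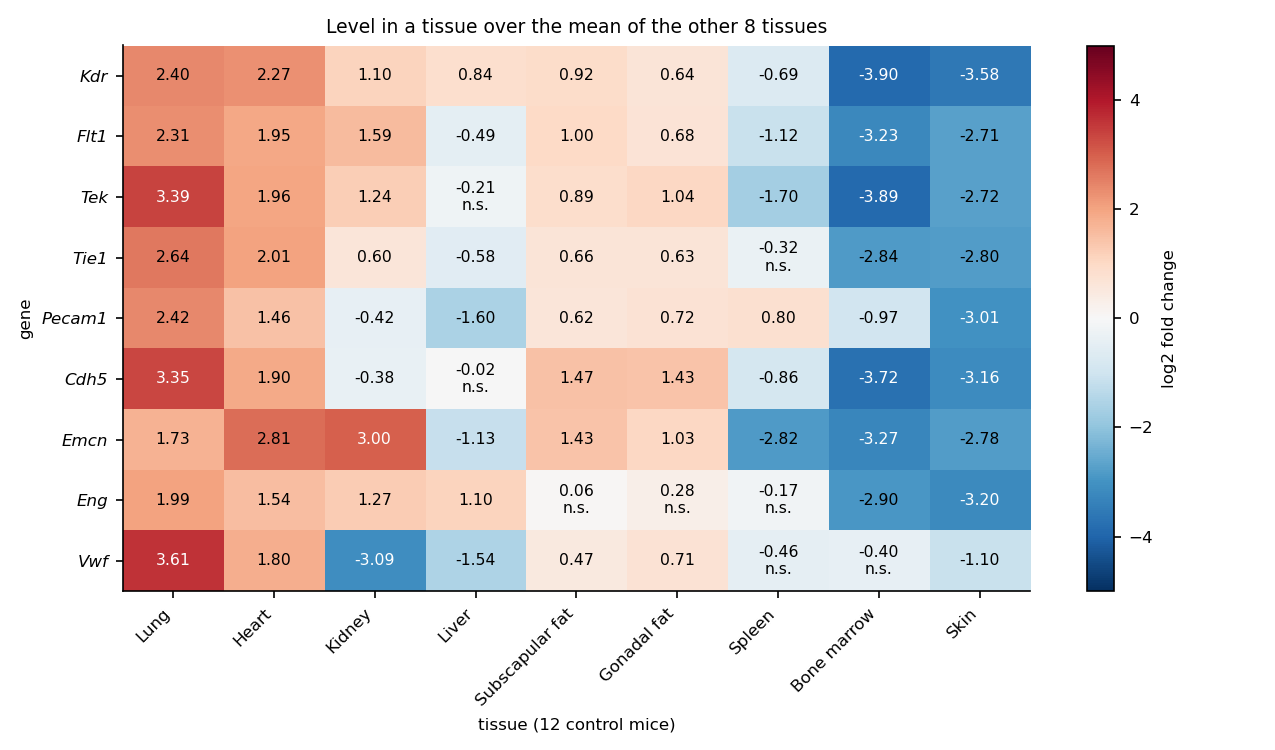
Difference of each tissue from the mean of the other 8 in control mice, for the 9 endothelial genes, on the log2 scale. Colours and printed values give the difference, and n.s. marks those not called. Lung and heart lie above 0 for every gene, skin lies below 0 for every gene, and in kidney Emcn stands at 3.00 and Vwf at −3.09.

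Across tissues the genes followed a common profile from which Vwf stood apart most, and Pecam1 less so. Over the 9 control means, Pearson's r was 0.98 between Kdr and Eng and between Flt1 and Tek. It was 0.26 between Vwf and Emcn. For Pecam1 it was 0.72 with Kdr and 0.86 with Tie1, beside 0.76 between Emcn and Eng. These r describe 9 tissues of the same mice and carry no test. Among 16745 other genes, those with the profile most like that of Kdr were Slc9a3r2, Dll4 and Pura (r of 0.981, 0.979 and 0.965). Flt1 was followed most closely by Uggt2, Zfp560 and Fam171a1 (r of 0.976, 0.974 and 0.969). For Tek they were Cyyr1, Adgrf5 and Gm44220 (r of 0.984, 0.983 and 0.98). Nearest to Tie1 came Sox18, Zfp560 and Slc9a3r2 (r of 0.99, 0.985 and 0.985). The closest profiles to Pecam1 belonged to Nova2, Shank3 and Heg1 (r of 0.97, 0.961 and 0.955). Cdh5 had Rasip1, Esam and Adgrf5 (r of 0.989, 0.989 and 0.987). Emcn was matched best by Gm4631, Arl3 and Kif1bp (r of 0.986, 0.967 and 0.964). With Eng went Zfp422, Pura and Pcdh12 (r of 0.97, 0.966 and 0.96). Vwf had the loosest matches, D830031N03Rik, Vwa3a and Tspan2 (r of 0.96, 0.918 and 0.915).

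A closer measure of likeness is how a gene deviated, in the same library, from the mean of its tissue, treatment and sex. This removes the differences between tissues, treatments and sexes. The doubted libraries were left out. Among 6448 genes that passed the count filter in every tissue, Kdr deviated most like Adgrf5 and Ptprb (r of 0.67 and 0.61). Ptprb, an endothelial phosphatase that acts on TIE2 and VE-cadherin, and Adgrf5, an adhesion receptor, each came back for several members, Ptprb among the first 3 for 5 of 9 (Kdr, Flt1, Tek, Tie1 and Cdh5) and Adgrf5 for 4 of 9 (Kdr, Flt1, Pecam1 and Cdh5). Among 9193 genes that passed in 7 or more tissues, these became 4 (without Tek) and 3 (without Pecam1). For Flt1 the first were Ptprb and Adgrf5 (r of 0.66 and 0.62), and for Cdh5 Ptprb and Adgrf5 (r of 0.72 and 0.64). Tek followed Ctnnd1 and Ptprb (r of 0.62 and 0.59). Tie1 went with Ptprb and Epas1 (r of 0.59 and 0.55). Pecam1 had weaker matches in Rgs3 and Adgrf5 (r of 0.45 and 0.44). Emcn had Acad8 and Pkp4 (r of 0.6 and 0.57). The matches of Eng were Dock6 and Notch1 (r of 0.59 and 0.57), and those of Vwf were Ece1 and Pkd1 (r of 0.65 and 0.58). Libraries share depth and the abundant features, so these r are descriptions.

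Between mice, pairs of members were mostly positively correlated within a tissue, with the lowest median r in liver, heart and bone marrow. All 36 pairs of members were correlated over mice within each tissue, without the 5 libraries named above, with 100000 permutations per relation and adjustment over all 324 relations (smallest p they can give 1e-05). In lung all 36 pairs were positive with a median r of 0.79, and 28 passed at adjusted p under 0.05 for Pearson's r. The median r was 0.61 in subscapular fat (24 pairs passed), 0.53 in gonadal fat (22), 0.53 in skin (21), 0.51 in spleen (21) and 0.49 in kidney (19). It was 0.25 in bone marrow and 0.15 in liver, with 6 pairs passing in each. In heart the median was 0.20, with 20 pairs positive and 16 negative, of which 10 positive pairs and 1 negative pair passed. Over all pairs of 8832 to 12729 of the genes tested in a tissue, in the same libraries, the median r was 0.01 to 0.03 in 8 tissues and 0.09 in liver. Those genes had passed the count filter, whereas the members were correlated in every tissue whether or not they passed it. In skin only Vwf passed the filter. In bone marrow Tek, Cdh5 and Emcn did not, and in liver and spleen Emcn did not. Pairs with these members rest on few counts, which limits the comparison with the background, above all in skin. In lung 77.8% of member pairs passed with positive r, the smallest of these r being 0.69, and 0.634% of all gene pairs had an r at least that large. In subscapular fat the shares were 66.7% of member pairs and 9.99% of all pairs, in gonadal fat 61.1% and 4.97%, in spleen 58.3% and 4.76%, in skin 58.3% and 6.18%, and in kidney 52.8% and 8.36%, with the bound set the same way in each tissue. In heart they were 27.8% and 6.48%, and in bone marrow 16.7% and 4.52%. Liver was closest to its background, with 16.7% of member pairs and 12.4% of all pairs.

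In heart, Eng and Vwf were correlated over 20 hearts, with Pearson's r = 0.87 and Spearman's rho = 0.86 (permutation p = 2e-05 and 1e-05, adjusted 0.000196 and 0.000216); r was 0.81 without the 2 farthest hearts, 0.82 in the 9 aPAPPA hearts and 0.94 in the 11 control hearts. Kdr went the other way from Vwf, with Pearson's r = −0.61 and Spearman's rho = −0.55 (permutation p = 0.00503 and 0.0136, adjusted 0.0144 and 0.0405); r was −0.5 without the 2 farthest hearts, −0.56 in aPAPPA hearts and −0.63 in control hearts. The other pairs between these 4 genes were not called: r was −0.37 for Kdr with Eng (permutation test, adjusted 0.164), −0.39 for Cdh5 with Vwf (adjusted 0.146) and −0.12 for Cdh5 with Eng (adjusted 0.7). Kdr and Cdh5 were positively correlated, with Pearson's r = 0.72 and Spearman's rho = 0.7 (permutation p = 0.00059 and 0.00068, adjusted 0.00273 and 0.00391); r was 0.78 without the 2 farthest hearts. Tek and Emcn were as well, with Pearson's r = 0.85 and Spearman's rho = 0.8 (permutation p = 1e-05 and 7e-05, adjusted 0.00012 and 0.000732); r was 0.79 without the 2 farthest hearts.

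The highest Vwf of any heart was 847 CPM in aPAPPA male 58, which had 297 CPM of Eng and 275 CPM of Kdr. Control female 18 followed with 592 CPM of Vwf, aPAPPA male 70 with 506 and control male 45 with 413. Control male 61 was the fifth, with 334 CPM of Vwf and 264 CPM of Eng, and had the highest Kdr of any heart, 460 CPM. The lowest heart outside the doubted ones was that of control female 4, with 73.4 CPM of Vwf, 83 CPM of Eng and 361 CPM of Kdr. Genes of the heart chambers, looked up after these values were seen, differed beside them. Myl7, an atrial myosin light chain, stood at 1646 CPM in aPAPPA male 58, 1768 in control female 18, 1863 in aPAPPA male 70 and 2559 in control male 45, against 2.97 CPM in control female 4. Myl2, the ventricular myosin light chain, stood at 1145, 2017, 2823 and 2506 CPM in the same 4 hearts, against 8508 CPM in control female 4. The order was not complete, since control male 61 had 58.8 CPM of Myl7 with its 334 CPM of Vwf, control female 3 had 2834 CPM of Myl7 with 208 CPM of Vwf, and control female 20 had 1.39 CPM of Myl7 with 239 CPM of Vwf. The part of chamber content in the Vwf and Eng levels was not tested.

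**Figure D3:**
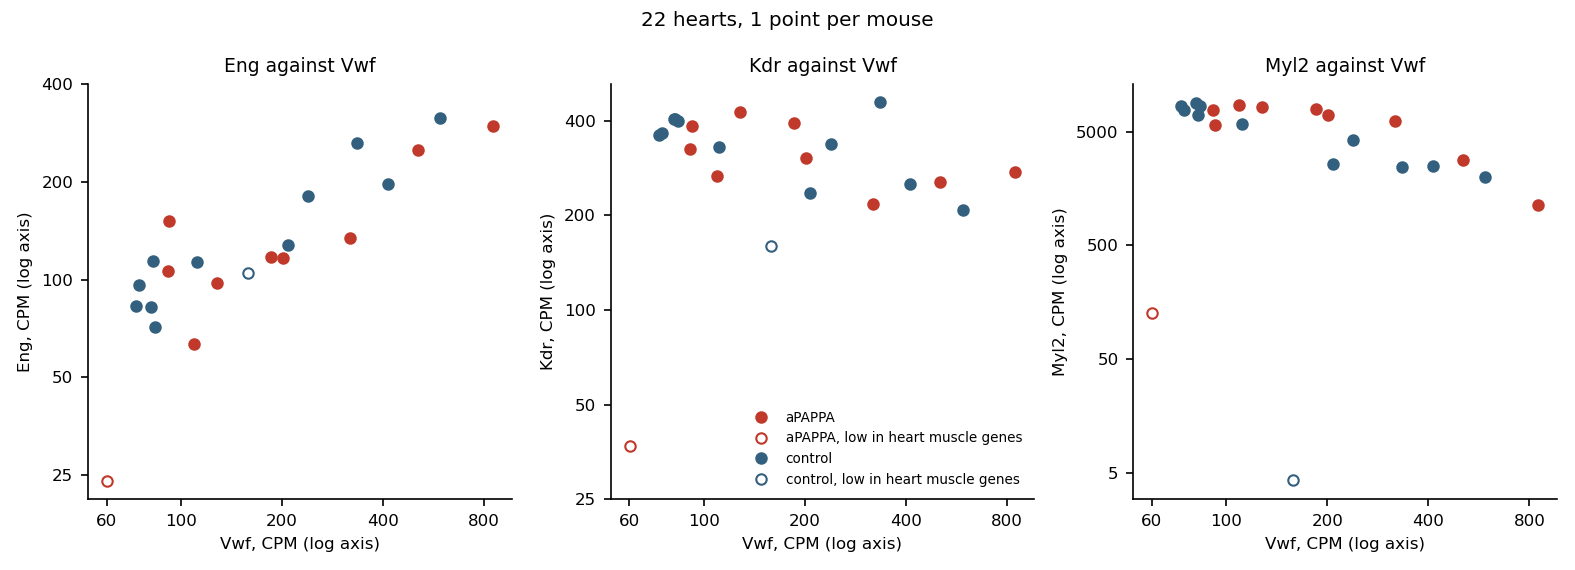
Level of Eng, Kdr and Myl2 against Vwf in each heart, in CPM on log axes. Each mouse is 1 point, with aPAPPA listed before control, and open points mark the doubted hearts, low in heart muscle genes. Eng increases with Vwf, while Kdr is 275 CPM in the heart with the most Vwf (847 CPM) and 361 CPM in control female 4, which has 73.4 CPM of Vwf.

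The question of the design was whether the antibody against PAPP-A changed these genes. A count of 0 of them was called in any of the 9 tissues (edgeR quasi-likelihood test, aPAPPA over control with sex as a covariate, adjusted over all genes tested). Few genes of any kind were: 0.00776% of 12891 in bone marrow, which is 1 gene, and 0% in each of the other 8 tissues. The count filter let through all 9 members in gonadal fat, heart, kidney, lung and subscapular fat, 8 in liver and spleen, 6 in bone marrow and Vwf alone in skin, 68 tests in all. Of these 3, or 4.41%, had an unadjusted p under 0.05 (1 each in bone marrow, liver and spleen), beside 4.61% of the 102286 tests of all genes in the 9 tissues. The share of all genes was 7.01% in bone marrow, 3.55% in liver and 5.32% in spleen. DESeq2 and limma-voom called 0 members in any tissue as well. In every tissue and for every member the aPAPPA and control values overlapped.

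Vwf in bone marrow was the first of the 3, with 43.4, 66.3 and 99.4 CPM in aPAPPA mice (the lowest, median and highest value of 10), against 27.4, 49.7 and 86.5 CPM in control mice. The groups overlapped, and the difference was 0.33 ± 0.16 (log2 ± SE, p = 0.0433, adjusted p = 0.703, edgeR). In spleen Vwf had 44.9, 64.4 and 82.9 CPM in aPAPPA mice and 16.2, 49.1 and 80.2 CPM in control mice, a difference of 0.28 ± 0.16 (adjusted p = 0.939, edgeR). Megakaryocyte and platelet genes lay higher beside it in estimate: their sum was 181, 242 and 315 CPM in aPAPPA marrow, against 137, 177 and 251 CPM in control marrow. In spleen it was 125, 188 and 294 CPM in aPAPPA mice, against 75.6, 142 and 210 CPM in control mice. Of the 9 genes on that list 6 were tested in bone marrow and 0 called, with a median of 0.31. Itgb3, an integrin of platelets, had an estimate of 0.42 ± 0.09 in marrow (adjusted p = 0.309, edgeR) and 0.39 ± 0.1 in spleen (adjusted p = 0.85, edgeR). Itga2b, its platelet partner, had 0.46 ± 0.13 in marrow (adjusted p = 0.547, edgeR). Whether those cells take part in the Vwf difference was not tested.

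Flt1 gave the remaining pair, with opposite signs. In liver it had 17.1, 25.5 and 47.9 CPM in aPAPPA mice and 22.7, 36.9 and 56.2 CPM in control mice, a difference of −0.42 ± 0.18 (p = 0.0293, adjusted p = 1, edgeR). In spleen it had 18.6, 30.2 and 41.8 CPM in aPAPPA mice and 15.3, 26.8 and 30 CPM in control mice, a difference of 0.29 ± 0.12 (p = 0.0252, adjusted p = 0.915, edgeR). Kdr, its fellow receptor, had 68.3, 120 and 177 CPM in aPAPPA livers and 104, 144 and 165 CPM in control livers, a difference of −0.18 ± 0.10 (adjusted p = 1, edgeR). The values overlapped between the groups in each case.

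Elsewhere no estimate had an unadjusted p under 0.05. In kidney the 9 members ran from −0.14 to 0.01 on the log2 scale, with Kdr at 125, 147 and 247 CPM in aPAPPA mice and 120, 163 and 211 CPM in control mice, and outside Vwf no interval reached past −0.39 or 0.27. In lung Cdh5 had 207, 507 and 625 CPM in aPAPPA mice and 110, 477 and 639 CPM in control mice, the lowest control being the doubted lung of male 68, and the estimate was 0.05 ± 0.21. Pecam1 in spleen was the most tightly bounded, at −0.06 ± 0.08 with a 95% interval of −0.21 to 0.10. The widest interval was that of Vwf in heart, −0.73 to 1.24, where aPAPPA hearts had 60.3, 157 and 847 CPM and control hearts 73.4, 135 and 592 CPM. The median estimate of the members tested was 0.09 in bone marrow, −0.09 in gonadal fat, −0.10 in heart, −0.03 in kidney, −0.14 in liver, 0.05 in lung, 0.05 in spleen and 0.09 in subscapular fat, beside medians of all genes tested between −0.01 and 0.01. All 8 members tested in liver had estimates below 0 and all 9 in subscapular fat above 0. They are read from the same libraries and are not separate evidence of direction.

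**Figure D4:**
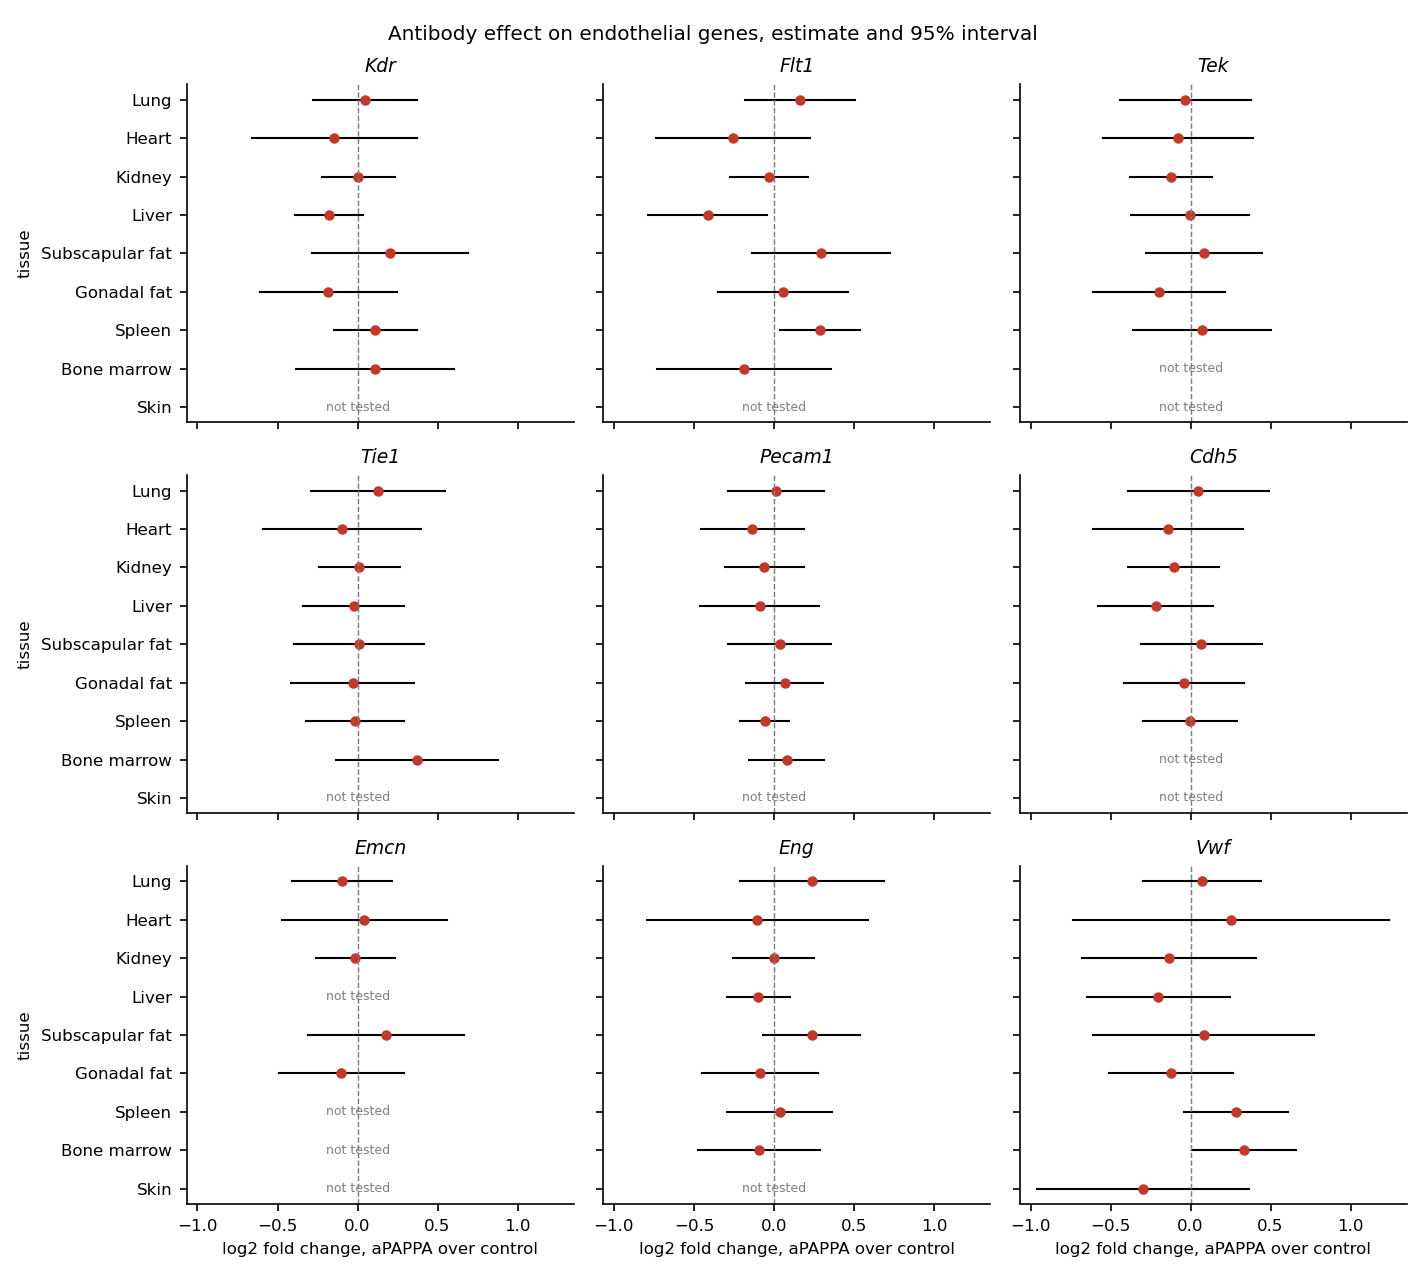
Difference of aPAPPA over control for each endothelial gene tested in each tissue, on the log2 scale, with bars for the 95% interval from edgeR. Every interval but those of Vwf in bone marrow (0.33), Flt1 in liver (−0.42) and Flt1 in spleen (0.29) includes 0, and 0 of the tests passed the adjusted threshold.

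Averaged over tissues within each mouse, the estimates lay nearer 0. Vwf, the one member to pass the filter in all 9 tissues, had 0.08 ± 0.10 (log2 ± SE, adjusted p = 0.865, limma), where 0% of 6458 genes were called. With genes that passed in 5 or more tissues, 0% of 10859 were called, and the members ran from −0.05 for Cdh5 to 0.09 for Tie1 (0.09 ± 0.06, adjusted p = 0.893, limma). Nor was the treatment difference called as unlike between the sexes for any member, where 0% of genes were called in 8 tissues and 0.00835% (1 gene) in spleen. Its lowest p was for Kdr in liver, 0.47 ± 0.19 on the log2 scale (p = 0.0203, adjusted p = 1, edgeR). Other lists around the same pathways were as quiet. Ligands of these receptors, receptor partners, 20 further endothelial genes, endothelial transcription factors, arterial, lymphatic and capillary genes and mural cell genes had 0 genes called in either direction in any tissue.

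More was called between females and males: Eng and Kdr were higher in female liver, and Kdr was lower in female subscapular fat. In liver 28.4% of 8897 genes were called between the sexes, 15.6% higher in females, and of the 8 members tested 2 were called, both higher. Eng had 90.9, 126 and 144 CPM in females (the lowest, median and highest value of 11), against 81.2, 93.1 and 129 CPM in males. The ranges overlapped, and the difference was 0.50 ± 0.09 (log2 ± SE, adjusted p = 0.000388, edgeR), which stayed called on leaving out any 1 mouse. Kdr had 104, 138 and 177 CPM in females, against 68.3, 121 and 165 CPM in males, with a difference of 0.37 ± 0.10 (adjusted p = 0.00972, edgeR), and was no longer called without the filter on low counts (0.27, adjusted p = 0.171, edgeR). The liver CPM scale had a median female minus male shift of −0.16 over the genes tested, so the CPM values understate these differences relative to the test. Cdh5 (0.45 ± 0.17, adjusted p = 0.0531), Flt1 (0.43 ± 0.18, 0.0693) and Pecam1 (0.40 ± 0.18, 0.0884) missed the threshold in the edgeR test, and Tie1 (−0.08 ± 0.15) and Vwf (−0.17 ± 0.21) were estimated below 0. DESeq2 called Cdh5 as well (0.44, adjusted p = 0.029), which made 3 calls. On leaving out 1 mouse, edgeR called Cdh5 without aPAPPA mouse 9 or control mouse 4, 18, 22, 55 or 61, Flt1 without aPAPPA mouse 6 or control mouse 22 or 71, and Pecam1 without control mouse 68. Emcn was not tested, with 2 counts as the female median and 6 as the male median.

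Other vascular genes of the liver moved beside them. Of 8 genes of the liver sinusoid, the leaky capillary bed of that organ, 4 were higher in females and 0 lower: the scavenger receptors Stab1 (0.52 ± 0.12, adjusted p = 0.00255) and Stab2 (0.35 ± 0.11, 0.0218), the receptor Gpr182 (0.63 ± 0.15, 0.00268) and the nuclease Dnase1l3 (0.45 ± 0.14, 0.0197), all by edgeR. Among 7 receptor partners tested, Flt4 (0.57), Ptprb (0.33), Robo4 (0.8) and Nrp2 (0.4) were higher and Nrp1 was lower (−0.27, adjusted p = 0.0491, edgeR). Both ligands tested were higher: Vegfa, the growth factor bound by the products of Kdr and Flt1, by 0.97 ± 0.14 (adjusted p = 1.98e-05, edgeR) and Gdf2, a ligand of endoglin, by 0.56 ± 0.15 (adjusted p = 0.00826, edgeR). Of 11 further endothelial genes tested, Plvap (0.57) and Egfl7 (0.48) were higher and 0 lower. Macrophage genes (3 of 6 tested) and leukocyte genes (2 of 3 tested) were higher in females too, and 1 of 8 hepatocyte genes was lower. The part of other liver cells in the Eng and Kdr differences was not tested.

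In subscapular fat 15.5% of 11019 genes were called, 9.58% lower in females, and of 9 members 1 was called. Kdr had 52.1, 114 and 175 CPM in females, against 83.1, 205 and 369 CPM in males. The ranges overlapped, with the 6 highest values all in males, and the difference was −0.74 ± 0.23 (log2 ± SE, adjusted p = 0.0379, edgeR). Limma-voom did not call it (−0.66, adjusted p = 0.0677). On leaving out 1 mouse it was called in 12 of 22 fits and lost without control mice 18, 20, 22, 55, 61 or 68 or aPAPPA mice 23, 36, 62 or 70, the estimate lying between −0.82 and −0.63 and the adjusted p between 0.0152 and 0.0805. Emcn (−0.63 ± 0.24, adjusted p = 0.0684) and Tie1 (−0.52 ± 0.20, 0.0718) missed the threshold in edgeR, though DESeq2 called both (adjusted p = 0.0411 and 0.0427). Vwf was estimated above 0 (0.44 ± 0.33, adjusted p = 0.378, edgeR).

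The makeup of the subscapular pieces differed between mice beside these values. Ucp1, the uncoupling protein of brown fat, ran from 0 to 1824 CPM in females (median 468) and from 0 to 14350 CPM in males (median 1460). The 5 males with the highest Kdr (369, 323, 221, 216 and 206 CPM) had 11990, 10130, 14350, 10620 and 6836 CPM of Ucp1, while the next male, control 37, had 205 CPM of Kdr with 2.26 CPM of Ucp1. Females did not show this order. The highest female Kdr values, 175 CPM in aPAPPA 6, 154 in control 4 and 149 in control 11, stood with 1.03, 0 and 831 CPM of Ucp1. Control female 18, with the most Ucp1 of the females (1824 CPM), had 53.7 CPM of Kdr. Skeletal muscle genes summed to 15.4, 15000 and 70300 CPM in females (the lowest, median and highest of 11), against 6.05, 3610 and 112000 CPM in males. Krt5, a keratin of basal epithelium, reached 38.4 CPM in females and 1.26 CPM in males, and both keratinocyte genes that were tested were higher in females. Of other genes, the receptor partners Nrp2 (−1.03 ± 0.25, adjusted p = 0.014, edgeR) and Nrp1 (−0.65 ± 0.21, adjusted p = 0.0379, edgeR) were lower in females. Among 9 mural cell genes Rgs5 (−0.94) and Cspg4 (−0.91) were among 3 that were lower and Myh11 (1.53) was the 1 that was higher. Of 5 erythroid genes tested, 4 were lower. In control mice 6 B cell genes summed to 1.11, 6.39 and 1210 CPM (lowest, median and highest), and leukocyte markers to 73.4, 175 and 2580 CPM. Control female 20, with the lowest Kdr (52.1 CPM), had a mean log2 adipocyte marker level of 7.85, against a median of 9.8. That library lay just inside the bound for doubted libraries. The part of brown fat, muscle, skin, blood or lymphoid content in the Kdr difference was not tested.

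Gonadal fat showed the opposite sign for Kdr. There Kdr had 81.2, 133 and 192 CPM in females, against 45.2, 89.6 and 167 CPM in males, and the difference of 0.47 ± 0.21 was not called (adjusted p = 0.126, edgeR), nor was any other member, where 15.1% of 11993 genes were. Without control male 37 it was called at 0.58 (adjusted p = 0.0462), and without aPAPPA male 62 at 0.61 (adjusted p = 0.0307). Tested directly, with the mouse as a block, the sex difference of Kdr was 1.22 ± 0.3 higher in gonadal than in subscapular fat (log2 ± SE, adjusted p = 0.0311, edgeR), where 3.68% of 11716 genes were called. It was 1.24 without the mouse block (adjusted p = 0.014) and 1.2 without the doubted libraries (adjusted p = 0.0487). This comparison was added after the values were seen. Flt1 (0.83 ± 0.3, adjusted p = 0.0939), Tek (0.75 ± 0.29, 0.112) and the other 6 members were not called in the same edgeR test. Ucp1 stayed at or below 158 CPM in gonadal fat of females and at or below 5.74 CPM in that of males.

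In the other 6 tissues 0 members were called between the sexes, beside 26.1% of all genes tested in kidney, 4.53% in spleen, 0.721% in bone marrow, 0.313% in skin, 0.187% in heart and 0.14% in lung. All 9 members were tested in kidney. Cdh5 had the lowest adjusted p there, with 29.3, 40.2 and 56.6 CPM in females, against 31.3, 47.5 and 65.1 CPM in males, and a difference of −0.27 ± 0.14 (adjusted p = 0.164, edgeR). Eng, at −0.21 ± 0.12 with all mice (adjusted p = 0.222, edgeR), was called without control female 22 (−0.29, adjusted p = 0.0428, edgeR).

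**Figure D5:**
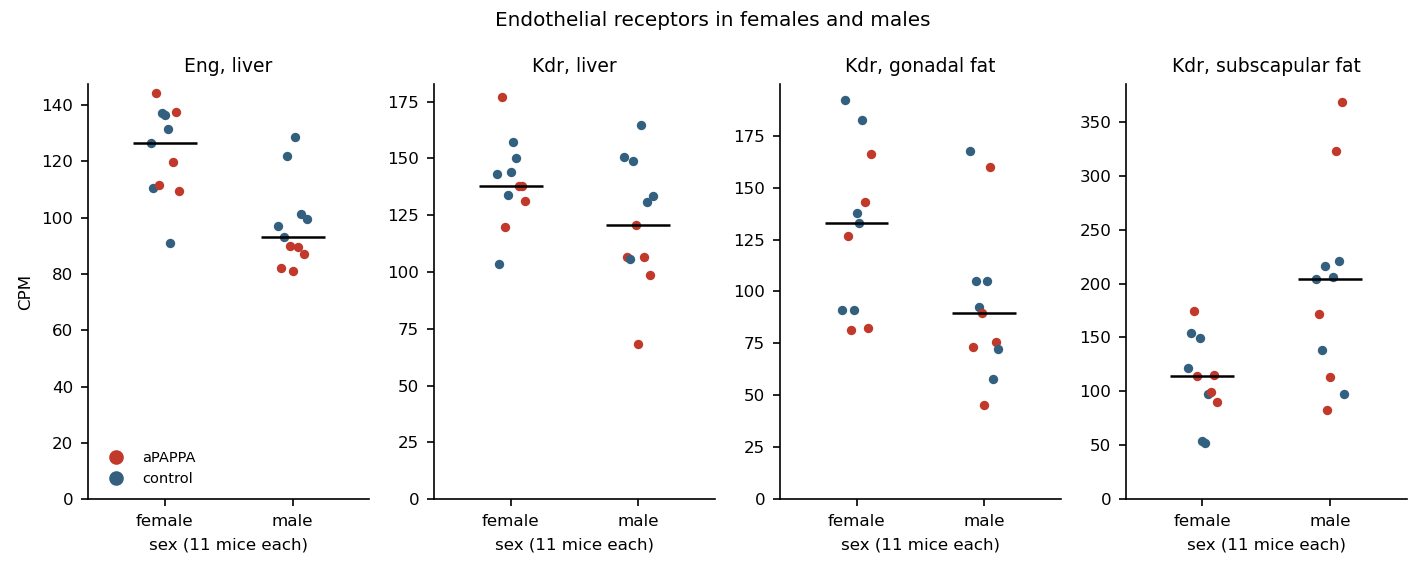
Level of Eng in liver and of Kdr in liver, gonadal fat and subscapular fat in females and males, in CPM. Each mouse is 1 point, and lines mark the medians. By edgeR, as log2 differences of females over males, Eng (0.50) and Kdr (0.37) were called higher in female liver. Kdr was called lower in female subscapular fat (−0.74) and was not called in gonadal fat (0.47).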

How the data were processed

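Whole-tissue RNA was extracted with a 96-well column kit, DNase-treated and made into stranded total RNA libraries from 100 ng with 12 PCR cycles, per the labels' protocols. The authors deposited whole-number counts per gene for 198 libraries. FastQC 0.11.5, Salmon and build mm10 are named in the submitters' processing notes, and the Salmon version, the annotation, the strand setting and the step to whole counts were not given in the sources used here. No pair of libraries held identical counts, and the labels name no batch. Replicates are separate mice by their identifiers.

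The members and lists were chosen with earlier results of these data known. Counts were scaled by TMM and tested by edgeR 4.0.16 quasi-likelihood fits (R 4.3.3): within each tissue with treatment and sex, for treatment, sex and their interaction, after edgeR's filter on low counts, and among control libraries for each tissue against the mean of the other 8. The mean over tissues per mouse was tested with limma 3.58.1. P-values were adjusted by the Benjamini-Hochberg method over all genes tested, and a call means adjusted p under 0.05. Per-kilobase ratios used the longest annotated transcript and a prior count of 2. DESeq2 1.42.0, limma-voom, DESeq2-type size factors, no filter, leaving out the 9 abundant features, and leaving out each mouse were alternatives. Mouse numbers pair the tissues of 1 animal, and the correlation within mouse was 0.006. The fits were tested on simulated data. Named genes were all 9 members, up to 4 genes of each other list with the smallest p in a tissue described, and the 3 genes most alike to each member with a mean level of at least 1 CPM. The depot comparison, heart chamber genes, Ucp1, Krt5 and Nrp1 in liver (the fifth of its list) were added after the values were seen.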

Additional observations from a re-analysis of the deposited data

Results flagged for a closer look

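A value far below its group was seen in 12 of the 81 groups of 10 aPAPPA libraries (9 genes in 9 tissues). The measure was the gap, on the log2 scale, to the nearest of the other aPAPPA libraries of that tissue (given as nearest, in CPM). Its bound would flag about 1 in 20 independent groups of normal values. Groups of 1 tissue share their libraries, so the flags are not independent. The heart of aPAPPA male 56 gave 6 of them, with 36.9 CPM of Kdr (nearest other aPAPPA heart 217), 18.4 of Flt1 (110), 18.9 of Tek (85.7), 14.4 of Tie1 (85.8), 22.2 of Cdh5 (142) and 11.7 of Emcn (55.4). That library also had the low cardiomyocyte markers given above. The skin of aPAPPA female 36, with 33377 usable counts, listed 0 CPM of Kdr (nearest 3.43), 0 of Pecam1 (6.6) and 0 of Vwf (13.7). Single values stood apart for Flt1 in the bone marrow of aPAPPA female 23 (0.753 CPM, nearest 4.55), Tek in the doubted gonadal fat of aPAPPA male 58 (20.8, nearest 47.7) and Tek in the lung of aPAPPA female 33 (136, nearest 225). Control groups of 12 were not examined this way.

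The sex difference of Kdr differed between the fat depots by a direct test, 1.22 on the log2 scale for gonadal minus subscapular fat (edgeR adjusted p = 0.0311). It passed in the fit with the mouse as a block and in that without.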

How the results depend on the processing

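A count of members was compared with its value under an alternative 680 times. In 660 the count was equal or within 1.5 times of its value, which includes small changes listed below. Beyond that bound 8 gave more calls and 12 fewer, and no called gene changed direction. The 0 treatment calls did not move under any alternative run, including each left-out mouse. The tissue counts stayed within 1.5 times of their values: 2 lower in kidney, beside 3, under 4 alternatives, 4 lower in liver, beside 5, by limma-voom, and 6 or 7 lower in spleen, beside 5, with DESeq2-type factors or without the doubted libraries. In subscapular fat 7 were higher, beside 8, with mouse as a replicate block and 3 other settings, which lost Vwf, and 9 in the aPAPPA libraries. Between the sexes, the 2 liver calls became 3 by DESeq2 (Cdh5 added) and 1 without the filter on low counts, and leaving out 1 mouse gave 2 to 4 (4 without control female 22, with Flt1 and Cdh5 added). The 1 call in subscapular fat became 3 by DESeq2 and 0 by limma-voom, and leaving out 1 mouse gave 0 to 3. In gonadal fat leaving out 1 mouse gave 0 to 1, and in kidney 0 to 1, beside 0 with all mice. Among single genes 21 estimates passed and 12 no longer passed under an alternative, and 3753 kept their side. The cause was not tested. With the mouse as a replicate block the depot difference of Kdr was 1.22 and without it 1.24, and the other 8 members were called in neither fit.

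Depth limits the low tissues: skin and bone marrow members rest on few counts, so Emcn, Cdh5 and Tek were not tested in either, and only Vwf was tested in skin.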
